A study of Mus musculus with 4 samples.

Results

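Immune checkpoint molecules are surface or secreted proteins through which a cell restrains or stimulates lymphocytes and phagocytes. The genes described here are 10 such molecules that a tumour cell can make: Cd274, Pdcd1lg2, Cd80, Cd86, Pvr, Cd276, Cd47, Lgals9, Havcr2 and Nt5e. They were chosen by name as a set of tumour-cell checkpoint genes, with earlier results of these data known. All 10 were found among the 51905 genes of the deposited tables, each under 1 symbol. Their RNA was measured by RNA-seq in CT26 and MC38, tumour cell lines grown from mouse colon carcinomas, into which a short hairpin RNA had been brought by lentivirus. The hairpin shGFP, aimed at green fluorescent protein, was the control, and shmaurka-1 was aimed at Aurka, which encodes the mitotic kinase Aurora-A. The groups were therefore CT26 shGFP, CT26 shmaurka-1, MC38 shGFP and MC38 shmaurka-1, with 1 library each, and the labels give the genotype of both lines as WT. All 4 libraries came from infected cells. The study's methods describe selection with puromycin for such cells and name no picking of clones. The knockdown rests on a single hairpin. CT26 was grown in RPMI-1640 and MC38 in DMEM, so cell line and medium cannot be told apart. The question put to the data here was whether the RNA of these ligands and receptors differed with the hairpin and between the lines.

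PD-L1 (the product of Cd274) and PD-L2 (Pdcd1lg2) bind PD-1 on T cells and dampen their response. CD80 and CD86 bind CD28, which costimulates T cells, and CTLA-4, which restrains them. CD155 (Pvr) is bound by TIGIT, an inhibitory receptor, and by CD226, an activating receptor of T and natural killer cells. CD47 binds SIRPα on macrophages and signals against engulfment. Galectin-9 (Lgals9) is a sugar-binding protein reported to bind TIM-3, the receptor encoded by Havcr2. B7-H3 (Cd276) is a B7 family member without an agreed receptor, and CD73 (Nt5e) makes extracellular adenosine from AMP.

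The libraries held between 22207768 and 23752269 fragments, a 1.07-fold range, and 3 fragments were taken as the floor of detection in a library. Aurka was measured at 5724 fragments in CT26 shGFP, 1093 in CT26 shmaurka-1, 2300 in MC38 shGFP and 413 in MC38 shmaurka-1. With shmaurka-1 its level fell by 79.2% in CT26 and fell by 81.6% in MC38, which is the direction the labels give. The labels call CT26 a fibroblast and MC38 an epithelial cell. Vim, a mesenchymal filament gene, was at 241 to 383 FPKM in the 4 libraries and Col1a1, a collagen gene, at 13.8 to 20.3. S100a4, the highest of 12 fibroblast markers in CT26, was at 951 and 921 FPKM there and at 36.8 and 60.1 in MC38. Of 11 fibroblast markers measured in both lines, 6 were called higher in CT26 (edgeR, adjusted p under 0.05), where 38.4% of such genes were. Pdgfra and Col3a1 were called higher in MC38 (log2 MC38 over CT26 1.29 and 0.71), where 34.8% were. Thy1, another of the 12, had at most 5 fragments in any library. The epithelial markers Epcam and Cdh1 had at most 1 and 6 fragments in any library, MC38 included, and the keratin gene Krt18 was at 33.7 and 37.4 FPKM in CT26 but at 0.222 and 0.264 in MC38. The 11 epithelial markers summed to 42.7 and 42.9 FPKM in CT26 and to 1.18 and 1.53 in MC38. Esrp1, an epithelial splicing factor gene, and Ocln, the occludin gene, had 0 fragments in both CT26 libraries, against 46 and 27 (Esrp1) and 20 and 8 (Ocln) in MC38. The epithelial label of MC38 was thus not matched by Epcam and Cdh1, its defining markers. The intestinal gene Cdx2 had at most 14 fragments, and the highest of 8 colon markers, Cdh17, reached 0.716 FPKM. Among 20 immune-cell markers, 11 had at most 3 fragments in every library. Ptprc, the pan-leukocyte marker, had at most 3 fragments, and the highest marker, Cd14, had 10.7 to 22.4 FPKM. The summed level of the 20 immune markers lay between 21.0 FPKM (CT26 shmaurka-1) and 29.0 FPKM (CT26 shGFP).

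Levels between genes were compared in FPKM, which corrects fragments for the length of the transcript and the size of the library. In CT26 the order was Pvr, Cd47, Lgals9, Cd80, Cd276, Cd274 and Havcr2, from a mean of 314 FPKM for Pvr to 1.31 for Havcr2, and the libraries of neighbouring genes in that order did not overlap. Pdcd1lg2, Nt5e and Cd86 were all below 0.12 FPKM in both CT26 libraries, and Pdcd1lg2 and Nt5e overlapped. In MC38 Lgals9 (51.7 and 53.9 FPKM with shGFP and shmaurka-1) and Cd47 (44.4 and 58.2) led and overlapped, followed by Pvr (26.2 and 23.3), Cd276 (8.38 and 8.79), Cd274 (5.73 and 7.15) and Havcr2 (1.28 and 0.615). The 4 remaining genes of MC38, Nt5e, Cd86, Cd80 and Pdcd1lg2, were at or below 0.125 FPKM. Of the PD-1 ligand genes, Cd274 was thus present in both lines, whereas Pdcd1lg2 had at most 4 fragments in any library, and Cd80 exceeded the floor of 3 fragments in CT26 alone.

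**Figure D1:**
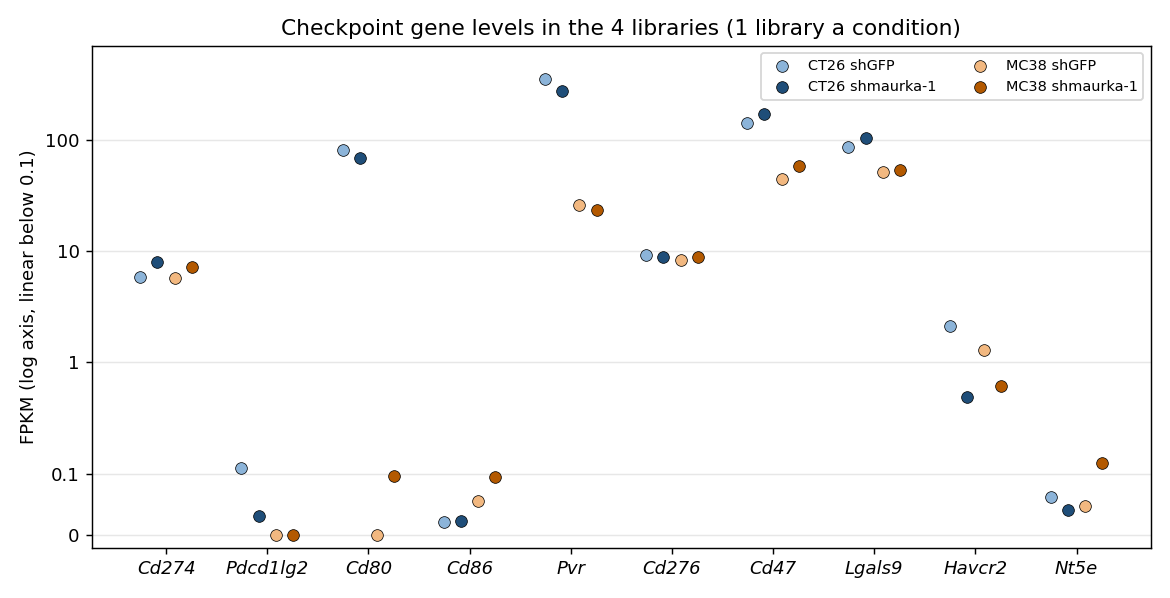
Level of each of the 10 checkpoint genes in FPKM (log axis, linear below 0.1), with 1 point for each of the 4 libraries and no error bar because each condition has 1 library. Cd80 lies at 68.3 and 81.1 FPKM in CT26 and at no more than 0.0952 in MC38, whereas Cd274 lies between 5.73 and 8.01 in all 4.

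RefSeq promoter entries of the GRCm38.p6 build matched 8 of the 10 members, not Pvr and Cd86. The sequences before the transcription start are printed for 4 of these 8, so that the region can be read beside the values: Havcr2 and Cd47, which were called for the hairpin, Cd80, which was above the floor in CT26 alone, and Cd274, the PD-L1 gene. Each sequence is the 250 bases before the RefSeq start, on the plus strand, and for Cd47 the first of 2 entries. Capitals mark matches, on either strand, to the letters of an interferon regulatory factor element (GAAANNGAA), a GAS element of interferon-gamma responses (TTCNNNGAA), an NF-kB core (GGGNNNTTC) or an AP-1 site (TGANTCA). Matches to the E-box, whose letters are CACGTG and which is bound by MYC and related factors, were searched for in the same way. So was the GC box bound by SP1, written GGGCGG. Its matches are in capitals too, and they are the only capitals in the Cd47 sequence. The CCAAT box was searched for by the letters of its name, which occur in 34.5% of promoters, and among the 8 windows it was found in that of Cd276. None of the matches printed here overlap. The windows are chr19:29367188-29367437 for Cd274, chr16:49855404-49855653 for Cd47, chr16:38458683-38458932 for Cd80 and chr11:46454681-46454930 for Havcr2.
Cd274: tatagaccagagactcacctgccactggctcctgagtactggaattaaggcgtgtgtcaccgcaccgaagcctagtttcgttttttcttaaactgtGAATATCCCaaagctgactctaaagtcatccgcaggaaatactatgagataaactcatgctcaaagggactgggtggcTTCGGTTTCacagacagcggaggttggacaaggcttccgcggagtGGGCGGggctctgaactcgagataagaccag
Cd47: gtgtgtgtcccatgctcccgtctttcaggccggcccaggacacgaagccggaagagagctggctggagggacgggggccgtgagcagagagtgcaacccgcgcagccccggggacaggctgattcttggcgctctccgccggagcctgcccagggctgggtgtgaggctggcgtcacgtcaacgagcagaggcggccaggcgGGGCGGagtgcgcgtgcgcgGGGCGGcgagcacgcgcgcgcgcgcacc
Cd80: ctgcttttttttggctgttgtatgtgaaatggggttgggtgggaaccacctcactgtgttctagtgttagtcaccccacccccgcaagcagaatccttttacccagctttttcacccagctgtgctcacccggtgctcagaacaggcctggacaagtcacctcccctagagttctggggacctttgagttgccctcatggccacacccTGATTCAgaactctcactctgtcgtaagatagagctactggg
Havcr2: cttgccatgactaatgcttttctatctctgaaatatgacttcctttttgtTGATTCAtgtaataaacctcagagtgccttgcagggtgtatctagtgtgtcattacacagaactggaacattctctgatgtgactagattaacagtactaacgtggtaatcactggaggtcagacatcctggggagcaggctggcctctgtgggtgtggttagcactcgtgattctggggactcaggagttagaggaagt

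The Cd274 window held an interferon regulatory factor element 76 to 68 bases before the start, an NF-kB core at 154 to 146 and a GC box at 31 to 26. These letters occur in 7.16%, 11.8% and 32.9% of 27025 mouse promoter windows of the same length. The Lgals9 window, not printed, held the other interferon regulatory factor element of the members, 54 to 46 bases before the start. The Cd80 window had an AP-1 site at 42 to 36 and the Havcr2 window one at 200 to 194, letters found in 6.87% of promoters. The Cd47 window had 2 GC boxes and was 73.2% G and C with 30 CpG sites, against medians of 52% and 6, while those of Cd80 (52.8%, 3 CpG sites) and Havcr2 (44.8%, 2 CpG sites) held fewer CpG sites than the median. None of the 8 windows held the letters of the GAS element or the E-box, which occur in 7.18% and 6.05% of promoters. A match is a description of letters, and no binding or methylation was measured here.

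A hairpin effect shared by the lines was looked for with edgeR (quasi-likelihood test, cell line as the block) over 11928 genes measured in both lines, and 6 of the 10 members were among them. Cd47 was called higher with shmaurka-1, where 1.67% of all genes tested were called higher. Havcr2 was called lower, where 1.12% of all genes tested were called lower. Cd274, Pvr, Lgals9 and Cd276 did not pass the adjusted p threshold of 0.05. The median log2 difference of the 6 members was 0.06 against 0.00 for all genes tested. Over all genes 59.8% of the 333 calls were higher, and 49.1% of 320 when libraries were scaled to their total counts instead of by TMM. The fit has 1 residual degree of freedom and nothing in the labels names separate cultures. Its p-values test an effect common to both lines against 0, judged by the spread between these libraries, which may be technical. That spread was pooled over genes, because the prior degrees of freedom of the fit had no finite value. A gene's own disagreement between the lines therefore hardly counts in its p-value.

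**Figure D2:**
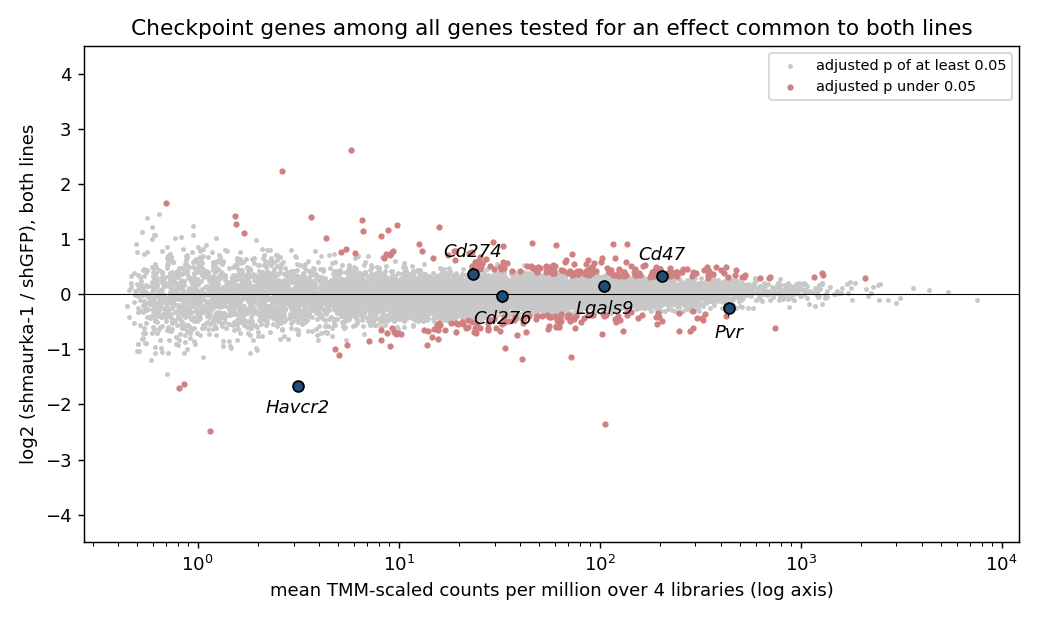
Log2 difference between shmaurka-1 and shGFP common to both lines against mean expression for the 11928 genes tested, with the 6 tested checkpoint genes in blue and genes with an adjusted p under 0.05 in red. Havcr2 lies at -1.67 among lowly expressed genes, and Cd47 at 0.32 near the edge of the called genes.

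Havcr2 (chromosome 11, 46454935 to 46481255) showed the largest change with shmaurka-1 among the 6 members tested. Coordinates here and below are of the GRCm38 build and span the whole gene. In CT26 128 fragments were counted with shGFP and 26 with shmaurka-1, and in MC38 95 and 42. Each shmaurka-1 library was below both shGFP libraries. The difference was -2.14 on the log2 scale in CT26 (95% counting interval -2.85 to -1.56) and -1.13 in MC38 (-1.71 to -0.61), so the level fell by 77.3% in CT26 and fell by 54.2% in MC38. These intervals are exact conditional binomial ones on the fragments of a pair of libraries and cover counting error only. Across both lines Havcr2 fell by 1.67 on the log2 scale (SE 0.29, edgeR adjusted p = 7e-06), and only 4 of the 11928 genes tested fell further. DESeq2's Wald test, with an adjusted p of 0.152, did not call it. The call was also lost when cell line was left out as the block, but there edgeR called 0 of the 11928 genes. That loss is therefore not particular to Havcr2. Among the members averaging 10 counts or more in a line, Havcr2 alone lay beyond the study's fold limits of 1.5 and 0.6. In CT26 1 of 7 measured members was below 0.6-fold, where 3.27% of genes were, and none was above 1.5-fold, where 3.72% were. In MC38 1 of 6 measured members was below 0.6-fold, against 1.86% of genes, and none was above 1.5-fold, against 3.73%. On deposited FPKM with a pseudocount of 1, a value near the level of Havcr2, its log2 difference was -1.07 in CT26 and -0.50 in MC38, and in MC38 it no longer passed the limit. In bulk RNA, fewer cells transcribing a gene and less RNA per cell cannot be told apart. At 0.492 to 2.13 FPKM the gene was at the low end of the expressed members.

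Cd47 (chromosome 16, 49855618 to 49915010) was measured at 5893 fragments in CT26 shGFP, 6339 in CT26 shmaurka-1, 2481 in MC38 shGFP and 3266 in MC38 shmaurka-1. It was higher with shmaurka-1 in each line, and the CT26 libraries were above the MC38 libraries. Its log2 difference was 0.23 in CT26 (95% counting interval 0.17 to 0.28) and 0.43 in MC38 (0.35 to 0.50), or 17.0% and 34.3% more. Across both lines Cd47 rose by 0.32 on the log2 scale (SE 0.10, edgeR adjusted p = 0.0374), and 655 of the 11928 genes rose further. This call was lost with total-count scaling (edgeR adjusted p = 0.067) and with limma-voom (0.0711), and in 4 other alternatives.

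Cd274 (chromosome 19, 29367455 to 29388095), the PD-L1 gene, had 446 fragments in CT26 shGFP, 545 in CT26 shmaurka-1, 518 in MC38 shGFP and 638 in MC38 shmaurka-1. The shmaurka-1 library was the higher in both lines. The log2 difference was 0.41 in CT26 (95% counting interval 0.23 to 0.59) and 0.33 in MC38 (0.16 to 0.50), a level 32.8% and 25.6% higher. The effect common to both lines was 0.37 (SE 0.14) and was not called (edgeR adjusted p = 0.165). Neither counting interval included 0, and neither value reached 1.5-fold.

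Pvr (chromosome 7, 19903578 to 19927607), the CD155 gene, had 19639 fragments in CT26 shGFP, 14283 in CT26 shmaurka-1, 1709 in MC38 shGFP and 1514 in MC38 shmaurka-1. Its locus in the tables is shared with 2 other gene models, Gm16184 and Gm16251, and how reads were split among them is not given in the sources used here. The log2 difference was -0.34 in CT26 (95% counting interval -0.37 to -0.31) and -0.15 in MC38 (-0.25 to -0.04), and the effect common to both lines was -0.25 (SE 0.09, edgeR adjusted p = 0.158). Lgals9 (chromosome 11, 78962974 to 78984946) had 2669 fragments in CT26 shGFP, 2908 in CT26 shmaurka-1, 1914 in MC38 shGFP and 1949 in MC38 shmaurka-1. The galectin-9 gene differed by 0.24 in CT26 (0.17 to 0.32) and by 0.06 in MC38 (-0.04 to 0.15) on the log2 scale, and the common effect of 0.15 was not called (edgeR adjusted p = 0.628).

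Cd276 (chromosome 9, 58524298 to 58555829), the B7-H3 gene, had the smallest hairpin effect of the 6 members tested (-0.04 on the log2 scale, edgeR adjusted p = 0.965), with 748 fragments in CT26 shGFP, 624 in CT26 shmaurka-1, 814 in MC38 shGFP and 837 in MC38 shmaurka-1. Its locus is shared with the gene model Gm10657. The log2 difference with shmaurka-1 was -0.14 in CT26 (95% counting interval -0.30 to 0.01) and 0.07 in MC38 (-0.07 to 0.21), and both intervals held no change. For Cd80 (chromosome 16, 38458933 to 38486933) 2155 fragments were counted in CT26 shGFP, 1686 in CT26 shmaurka-1, 0 in MC38 shGFP and 3 in MC38 shmaurka-1. The log2 difference in CT26 was -0.23 (-0.33 to -0.14). A change with the hairpin was not detectable for Cd80 in MC38 at this depth.

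**Figure D3:**
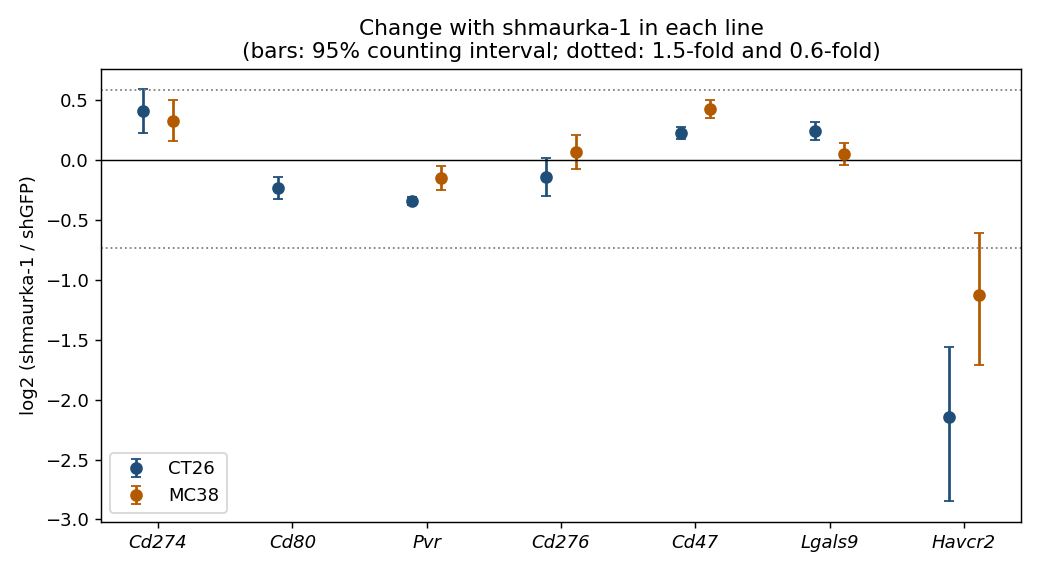
Log2 ratio of shmaurka-1 to shGFP in CT26 (blue) and MC38 (orange) for the 7 members measured in CT26 and the 6 measured in MC38, with 95% counting intervals as bars and the 1.5-fold and 0.6-fold limits dotted. Only Havcr2 lies beyond a limit, and Cd274 and Cd47 lie above 0 in both lines.

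The other 3 members were near the floor. Pdcd1lg2 (chromosome 19, 29410919 to 29471157), the PD-L2 gene and a neighbour of Cd274, had 4 fragments in CT26 shGFP, 1 in CT26 shmaurka-1 and 0 in both MC38 libraries. Cd86 (chromosome 16, 36603869 to 36666081) had 1 fragment in each CT26 library, 3 in MC38 shGFP and 5 in MC38 shmaurka-1. Nt5e (chromosome 9, 88327197 to 88372092) had 5 fragments in CT26 shGFP, 3 in CT26 shmaurka-1, 4 in MC38 shGFP and 12 in MC38 shmaurka-1. Every counting interval of these genes between hairpins held no change, for Nt5e -3.30 to 1.75 in CT26 and -0.11 to 3.70 in MC38 on the log2 scale, apart from Pdcd1lg2 in MC38, which had no fragment to compare. None was tested with edgeR in the main fits. The B7 partners CD80 and CD86 were therefore represented in CT26 by Cd80 RNA, with Cd86 at or under the floor.

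MC38 and CT26 were compared in the same edgeR model, with the hairpin as a block, over 13984 genes, and 7 members were tested. Of these, 4 were called higher in CT26, where 36.5% of all genes tested were, and 0 were called higher in MC38, where 39.6% of all genes were. Cd80, one of the 4, passed the filter through its CT26 libraries alone and had to differ. Among the 11928 genes measured in both lines, 3 of 6 members were called higher in CT26, against 38.4% of genes, and 0 in MC38, against 34.8%. The median log2 difference (MC38 over CT26) was -0.59 for these 6 members and -0.04 for these genes. These shares show how far the lines differ throughout, and the line comparison rests on 2 libraries a line that carry different hairpins. With total-count scaling the median of all 13984 genes moved from 0.04 to 0.38, and 66.5% of its calls were higher in MC38 against 52.1% with TMM. The 4 calls were made in every alternative.

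With shGFP the level of Cd80 in CT26 was at least 848-fold that in MC38, set against the floor of 3 fragments because no fragment was counted in MC38. With shmaurka-1, where MC38 had 3 fragments, the log2 ratio of MC38 to CT26 was -9.02 with 1 count added (95% counting interval -11.74 to -7.91). Pvr was 13.1-fold higher in CT26 (log2 MC38 over CT26 -3.71, SE 0.10, edgeR adjusted p = 7.9e-270), and its ratio was 13.6-fold with shGFP and 11.9-fold with shmaurka-1. A larger excess in CT26 was found in 1.48% of the 11928 genes measured in both lines. Cd47 was 2.70-fold higher in CT26 (-1.43, SE 0.10, edgeR adjusted p = 6.61e-47), and Lgals9 1.82-fold higher (-0.86, SE 0.10, edgeR adjusted p = 4.98e-16), with larger excesses in 9.02% and 19.2% of those genes. Among the genes measured in both lines, more than 2-fold in favour of CT26 with each hairpin was found for 2 of 6 members, Pvr and Cd47, and for 12.6% of genes.

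Cd274, Havcr2 and Cd276 were not called between the lines. Cd274 differed by -0.11 (log2 MC38 over CT26, SE 0.14, edgeR adjusted p = 0.48), with counting intervals from -0.21 to 0.16 with shGFP and from -0.27 to 0.06 with shmaurka-1. Cd276 differed by -0.06 (SE 0.13, edgeR adjusted p = 0.69). Havcr2 was lower in MC38 than in CT26 with shGFP (log2 -0.66, 95% counting interval -1.07 to -0.27), and with shmaurka-1 the interval held no difference (0.35, -0.38 to 1.13). With total-count scaling, where the median of all genes was 0.38, Cd274 was at 0.23 and Havcr2 at 0.02, and neither was called. Cd276, at 0.28, was called higher in MC38 under that scaling. No test of a difference in the hairpin's effect on Havcr2 between the lines was made, for want of a second library per condition.

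**Figure D4:**
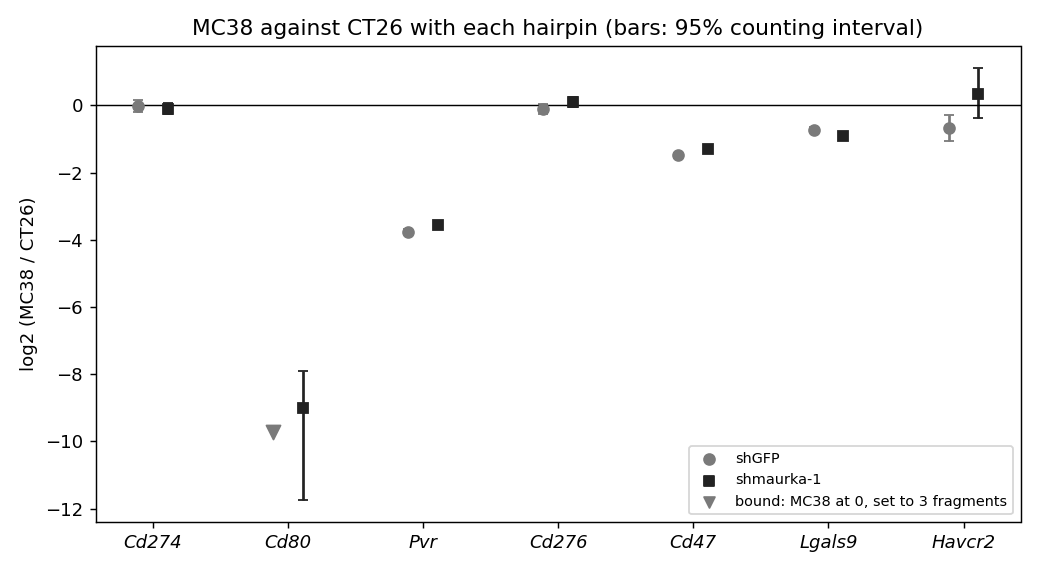
Log2 ratio of MC38 to CT26 for the 7 members tested, with shGFP (grey circles) and shmaurka-1 (black squares), and 95% counting intervals as bars. The grey triangle of Cd80 is a bound, since MC38 shGFP had 0 fragments. Cd80, Pvr, Cd47 and Lgals9 lie below 0 with both hairpins, and Cd274 and Cd276 lie near 0.

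Other genes of the pathways were read from lists. Among 30 genes that transmit interferon signals to Cd274 or act on the PD-L1 protein, all were tested for the hairpin, 1 was called higher with shmaurka-1 and 0 lower, and the median log2 difference was -0.03. Over all genes tested 1.67% were called higher and 1.12% lower, so 1 call in a list of this size is near the background. It was Stat2, a transcription factor of the interferon response, with 5305 fragments in CT26 shGFP, 6582 in CT26 shmaurka-1, 4833 in MC38 shGFP and 6195 in MC38 shmaurka-1. Stat2 rose by 0.41 (SE 0.10, edgeR adjusted p = 0.00203). This call was lost with DESeq2's Wald test and without the block, where 0 genes were called. Irf1, which encodes another factor of that response, stood at 0.02 (edgeR adjusted p = 0.975), and Cmtm6, which stabilizes PD-L1 at the cell surface, at -0.29 (edgeR adjusted p = 0.192). Irf1 and Cmtm6 were picked for their roles after their values were seen.

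Of 23 other ligands, 10 were tested for the hairpin and 0 were called in either direction, with the lowest edgeR adjusted p at 0.0774. Of 20 receptors of these molecules, 5 were tested and 1, Havcr2 itself, was called. Of 21 genes of adenosine and tryptophan metabolism 9 were tested, and of 15 genes tied to CD47 or TIM-3 9 were tested, and 0 were called in both lists. At the shares over all genes of 1.67% higher and 1.12% lower, lists of these sizes would be expected to hold few calls or none. The median log2 difference was -0.03 for the ligands, -0.07 for the receptors, 0.00 for the metabolic genes and -0.01 for the genes tied to CD47 or TIM-3. Between the lines the same lists were counted over the genes measured in both lines, of which 34.8% were called higher in MC38 and 38.4% in CT26. Of 10 ligands 4 were higher in MC38 and 5 in CT26, of 5 receptors 0 and 2, of 9 metabolic genes 5 and 2, of 30 regulators of Cd274 5 and 18, and of 9 genes tied to CD47 or TIM-3 4 and 4. A further 7 ligands, 3 receptors, 4 metabolic genes and 2 genes tied to CD47 or TIM-3 passed the filter of the line comparison through a single line, so they had to differ, and those named here are given as values alone.

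The ligand genes with the largest fitted difference between the lines were Fgl1, a ligand of LAG-3, with 1 and 0 fragments in CT26 shGFP and CT26 shmaurka-1 and 146 and 162 in MC38, and Nectin3, an adhesion gene of the nectin family to which Pvr is related, with 5 in each CT26 library and 1039 and 886 in MC38. Icosl, the ligand gene of ICOS, followed with 1 in each CT26 library and 145 and 133 in MC38. Vtcn1, which encodes B7-H4, went the other way with 66 and 52 in CT26 and 0 and 1 in MC38. All 4 passed the filter through a single line. Tigit, the gene of the CD155 receptor, was present in CT26 with 885 and 754 fragments (49.8 and 46.8 FPKM) and in MC38 with 9 and 13, and it passed the filter through CT26 alone. Of the other receptors, Cd28, Ctla4, Cd226 and Cd96 had 0 fragments in every library and Pdcd1, the PD-1 gene, at most 2. Cd44, which was measured in both lines, was called higher in CT26 (19039 and 15726 fragments in CT26, 4969 and 4904 in MC38). Lag3 (30 and 23 in CT26, 8 and 4 in MC38) and Adora1, an adenosine receptor gene (4 and 1 in CT26, 63 and 42 in MC38), passed the filter through CT26 and through MC38 alone.

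**Figure D5:**
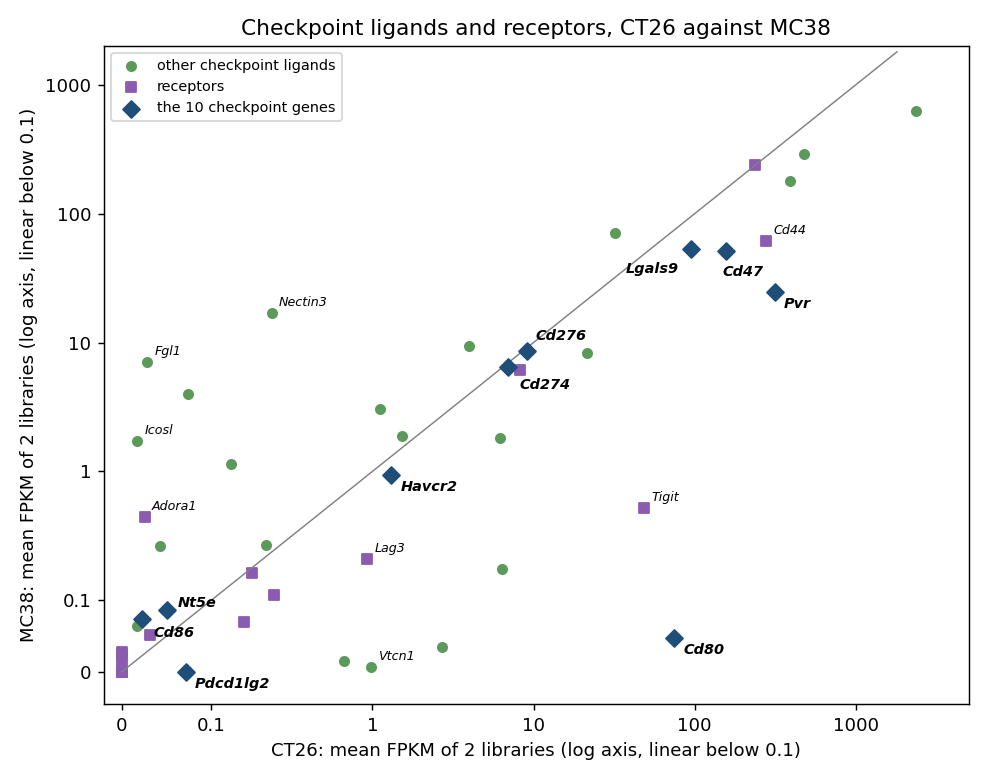
Mean FPKM of the 2 libraries of CT26 (horizontal) and MC38 (vertical) for the 10 checkpoint genes (blue diamonds), 23 other ligands (green circles) and the receptors (purple squares), on log axes that are linear below 0.1, with the line of equal level in grey. Cd80, Tigit and Vtcn1 lie toward CT26, and Fgl1, Nectin3 and Icosl toward MC38.

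In the metabolic list Ptgs2, which encodes the prostaglandin-forming enzyme COX-2, had 90312 and 79602 fragments in CT26 and 3895 and 4580 in MC38, a log2 difference of -4.66 (SE 0.10). Ada, the adenosine deaminase gene, had 172 and 196 fragments in CT26 and 1169 in each MC38 library, and Nos2, the inducible nitric oxide synthase gene, 6 and 9 against 105 and 107. Enpp3 was at 2 and 1 in CT26 and 33 and 17 in MC38, and like Nos2 it passed the filter through MC38 alone. Among the regulators of Cd274 the differences were smaller, with Cmtm4 at 1.34 and Nfkb1, Zdhhc9 and Irf9 at -1.15, -1.10 and -1.05 (log2 MC38 over CT26). Among genes tied to CD47 or TIM-3, Timd2, of the TIM family, had 0 fragments in both CT26 libraries and 54 and 60 in MC38. Ceacam1, reported to bind TIM-3, had 211 and 159 in CT26 and 5 and 2 in MC38, at a locus that 8 gene models share, and both genes passed the filter through a single line. The thrombospondin genes Thbs1 and Thbs2, whose products bind CD47, were higher in CT26 at -1.82 and -2.38.

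The chromosome neighbours of the members were read from the same fits. Of 18 distinct neighbours that are not members, 13 were measured in both lines, and of these 9 were called higher in MC38 (34.8% of all such genes were) and 2 higher in CT26 (38.4%). The nearest expressed neighbours of Cd80 were Adprh, with 526 and 413 fragments in CT26 and 2652 and 2399 in MC38, and Timmdc1, with 621 and 583 in CT26 and 1142 and 1109 in MC38, and both were higher in MC38 (log2 2.10 and 0.57). The neighbours of Cd47, Ift57 and Bbx, were also higher in MC38 (0.37 and 2.01). Bcl3, beside Pvr, was not called between the lines (0.28, edgeR adjusted p = 0.165), and Nptn, beside Cd276, was higher in CT26 (-0.23). Plgrkt, next to Cd274, was at -0.12 for the hairpin (edgeR adjusted p = 0.848) and Ric1, beyond Pdcd1lg2, at 0.09 (0.829). The nearest expressed gene after Havcr2 was Timd2, and before it Gm12168, which was at 0.39 for the hairpin (edgeR adjusted p = 0.684). Nos2, with more fragments in MC38, lay 2.72 kb from Lgals9.

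The genes whose pattern over the 4 libraries was most like that of Cd274 were Gm5075, Cdc23 and Nle1, with distances of 0.05, 0.05 and 0.06 in centred log2 TMM-scaled counts, among 11546 genes. Cdc23, a subunit gene of the anaphase-promoting complex, had 1605, 2036, 1903 and 2401 fragments in the order used above, at a locus shared by 3 gene models. For Havcr2 the nearest were Mgst3, BC022687 and Pim1, at the larger distances of 0.65, 0.69 and 0.72. For Pim1, a kinase gene, 789 and 327 fragments were counted in CT26 with shGFP and shmaurka-1, and 577 and 482 in MC38. With 4 libraries such a likeness is a description.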

How the data were processed

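RNA from the 4 cultures was sequenced from strand-specific libraries. Estimated counts and FPKM, deposited by the authors, cover 51905 genes. Per the labels' processing notes, Trimmomatic 0.36, HISAT2, Cufflinks 2.2.1 and Cuffdiff were used and GRCm39 is named as the build. Of 18219 genes, however, 99.8% overlapped the RefSeq GRCm38 gene of the same name and 9.55% the GRCm39 gene, so loci are given as GRCm38. File starts count from 0 and are written from 1.

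The deposited estimated counts of a library were whole multiples of a step, within 0.05, for 97.1% to 97.7% of nonzero values, and dividing by it gave the fragments. Fold changes are ratios of TMM-scaled estimated counts with 1 count added. FPKM served to compare genes. Intervals are 95% exact conditional binomial intervals on fragments. Because PCR duplicates are not independent, they cover counting error only.

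Rounded counts were tested with edgeR 4.0.16 (R 4.3.3), glmQLFit and glmQLFTest, with line and hairpin as additive terms and Benjamini-Hochberg adjustment over all genes. The SE beside an edgeR value is the absolute log2 difference divided by the square root of the F statistic of the test. It is not an observed spread of the gene. For the hairpin fit a gene needed a mean of 10 counts in both lines, and for the line fit over the 4 libraries. DESeq2 1.42.0, limma 3.58.1, other scalings, filters, added counts and FPKM were alternatives. Python 3.11.15, numpy 2.4.6, scipy 1.17.1 and pandas 2.3.3 did the rest.

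The members and gene lists were chosen with earlier results of these data known. Cell type markers apart, genes named from a list are those called for the hairpin, at most 6, and the 4 with the largest line difference. Irf1, Cmtm6 and the receptors at or near 0 (Cd28, Ctla4, Cd226, Cd96 and Pdcd1) were named after their values were seen. Patterns were compared by Euclidean distance among genes averaging 50 counts or more. Neighbours are the nearest expressed genes on each side. A further gene is not reported here and was left out of the list counts.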

Additional observations from a re-analysis of the deposited data

How the results depend on the processing

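The 4 members called higher in CT26 (Cd80, Pvr, Cd47 and Lgals9) were called in each of 9 alternatives. Of these, Cd80 passed the filter through CT26 alone and had to differ. With total-count scaling 1 member, Cd276, was also called higher in MC38, its log2 difference being 0.28 in place of -0.06 (edgeR adjusted p = 0.0458), where the median of all genes was 0.38. The number of members called higher with shmaurka-1 fell from 1 to 0 with total-count scaling, with a filter at a mean of 50 counts, with no filter beyond 1 count, with limma-voom, with DESeq2's Wald test and with no replicate block, and the adjusted p of Cd47 ranged from 0.0379 to 1. The number called lower fell from 1 to 0 with DESeq2's Wald test and with no replicate block, and the adjusted p of Havcr2 ranged from 2.88e-06 to 1. Without cell line as the block, edgeR called 0 of 11928 genes (13 at an unadjusted p under 0.05), against 333 calls with it, 101 under the filter at 50 counts and 29 with DESeq2. Without the block the difference between the lines is part of the spread, and the common dispersion was 0.35, against 0.00726 in the main fit. Why fewer genes were called under the filter at 50 counts and with DESeq2 was not tested. The main hairpin fit is itself paired by cell line, and with 1 library a group the replicate numbers pair nothing further. Members beyond the fold limits in MC38 went from 1 to 0 with FPKM and a pseudocount of 1, where Havcr2 stood at -0.50 (log2), since the added value is near its level. Of 314 alternative log2 values of members, 295 stayed within the counting interval or the spread between lines or hairpins, and 19 moved. Values from 1 line or 1 hairpin alone are the ends of that spread, so they could not move. The sign changed or reached 0 in the line difference of Cd276 (3 values), Havcr2 (2), Cd274 (1) and Nt5e (1). For the mean hairpin difference this held for Cd80 (2), Pdcd1lg2 (1), Cd276 (1) and Nt5e (1). From CT26 or MC38 alone the hairpin difference of Havcr2 was -2.14 and -1.13, of Cd47 0.23 and 0.43 and of Cd274 0.41 and 0.33. With 1 library a condition, differences of Pdcd1lg2, Cd86 and Nt5e could not be resolved at this depth.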
